A study of Homo sapiens with 30 samples.

Results

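The 9 genes described here encode aldo-keto reductases, and their transcripts were followed in the human lung carcinoma line A549 during treatment with Korean herbal formulas. The members were taken by symbol: AKR1A1, AKR1B1, AKR1B10, AKR1B15, AKR1C1, AKR1C2, AKR1C3, AKR1C4 and AKR7A2. All 9 symbols had 1 row each among the 60675 gene rows of the deposited table, and all 9 were abundant enough to test, as were 17701 genes in all. Cells were exposed for 24 h to vehicle or to an ethanol extract of a formula, either Sibjeondaebo-tang, Palmul-tang, Samul-tang or Sagunja-tang. Doses were 20 µg/mL (low), 100 µg/mL (medium) and 500 µg/mL (high). The vehicle is given as 0.1% DMSO in the sample labels and as 2% DMSO in the text of the series. The 30 libraries fall into 13 groups: vehicle with 3, each dose of Palmul-tang and of Sibjeondaebo-tang with 3, each dose of Samul-tang with 2, and each dose of Sagunja-tang with 1. By tradition Palmul-tang joins the herbs of Samul-tang with those of Sagunja-tang, and Sibjeondaebo-tang extends Palmul-tang with further herbs. All groups are of the same line, so each describes 1 established tumour cell line and no normal airway cells.

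Aldo-keto reductases use NADPH to reduce aldehydes and ketones to alcohols, and so act on sugars, lipid peroxidation products, steroids, prostaglandins and carbonyl-bearing drugs. Several members, among them AKR1B10 and the AKR1C genes, are known targets of the transcription factor NRF2, whose repressor KEAP1 is mutated in A549 cells. High levels of AKR1B10 and AKR1C transcripts are a known trait of this line and of many lung carcinomas.

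The libraries held 23986637 to 35159898 expected counts. The 3 high-dose Sibjeondaebo-tang libraries stood apart from the other 27 on the first principal component, at 39.9 to 48.1 against -14.95 to 5.94. Summed epithelial markers lay between 6067 and 7794 CPM (counts scaled to the library size) in every library, while summed fibroblast markers stayed between 7.26 and 10.48 CPM, endothelial markers between 17.1 and 21.65 CPM and leukocyte markers between 12.9 and 27.1 CPM, with no marker at 0 in all libraries. The epithelial sum was not constant, at 7361 to 7794 CPM in vehicle and 7258 to 7539 CPM at high Sibjeondaebo-tang. In all other groups it was at most 6906 CPM, with 6067 to 6204 CPM at high Palmul-tang. DCN made up 55.97% to 66.88% of the fibroblast sum, by group. The endothelial sum was nearly all KDR, at 98.05% to 99.38% by group, and no other endothelial marker passed 0.4331 CPM in any library. The leukocyte sum was nearly all CD68, a lysosomal protein gene that cells of other types also express, and no other leukocyte marker passed 0.226 CPM in any library. That sum was 22.4 to 27.1 CPM in vehicle, 20.4 to 22.9 CPM at high Sibjeondaebo-tang and 12.9 to 17.3 CPM at the low doses. Titles give batch E for each library and do not say whether replicates were separate cultures, so p-values cover only how these libraries vary, and that spread may be technical. Library codes begin with E1 for vehicle, with 14 for Samul-tang and Sagunja-tang and with 15 for Palmul-tang and Sibjeondaebo-tang, and what the prefix marks is not stated. An effect of an extract against vehicle, and a difference between formulas of unlike prefix in an order or correlation over the 13 groups, cannot be told apart from it. Changes with dose inside a formula need no vehicle library and are therefore described first.

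The AKR1C genes lie side by side on chromosome 10 and are near copies of each other, which matters for every value given for them. AKR1C1 (ENSG00000187134, chr10:4963253-4983283, plus strand) and AKR1C2 (ENSG00000151632, chr10:4987400-5018031, minus strand) differ at 19 of 969 coding bases, an identity of 98.0%. AKR1C3 (ENSG00000196139, chr10:5035354-5107686, plus strand) is 91.4% identical to AKR1C1, and AKR1C4 (ENSG00000198610, chr10:5195462-5218949, plus strand) 88.5%. The first 120 coding bases, which span 2 exons, are printed for the 4 genes from GENCODE 29 on GRCh38 to show how little separates AKR1C1 from AKR1C2. Capitals mark bases that differ from AKR1C2 at the same position, 4 in AKR1C1, 18 in AKR1C3 and 23 in AKR1C4.
AKR1C1: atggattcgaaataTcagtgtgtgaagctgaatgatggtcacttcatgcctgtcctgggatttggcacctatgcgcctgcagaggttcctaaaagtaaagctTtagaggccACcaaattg
AKR1C2: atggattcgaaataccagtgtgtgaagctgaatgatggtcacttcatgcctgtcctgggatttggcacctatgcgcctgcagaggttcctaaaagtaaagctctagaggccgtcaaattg
AKR1C3: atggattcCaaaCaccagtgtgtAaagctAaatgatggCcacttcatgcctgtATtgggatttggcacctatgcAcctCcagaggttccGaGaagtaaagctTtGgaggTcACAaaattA
AKR1C4: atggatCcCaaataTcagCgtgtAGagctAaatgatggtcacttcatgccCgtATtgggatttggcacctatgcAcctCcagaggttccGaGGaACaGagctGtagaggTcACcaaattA
A stretch of 100 bases, the length of 1 read, was found unchanged in another gene for 32.9% of all such windows of the AKR1C2 transcript and 17.4% of those of AKR1C1. In AKR1C3 the share was 4.98% and in AKR1C4 0.456%. Almost all shared windows of AKR1C1, 1136 of 1152, were shared with AKR1C2. The libraries were paired-end, and the windows describe 1 read without its mate. The shares of windows are therefore not the shares of reads that had to be divided, which were not measured. The quantification divides reads that match more than 1 gene by an estimate. The deposited counts of AKR1C1, AKR1C2 and AKR1C3 were accordingly not whole in 29, 30 and 29 of 30 libraries, whereas those of AKR1C4 were whole in all. A change of AKR1C1 or AKR1C2 alone is therefore uncertain. Sums over the AKR1C genes do not depend on this division among them, and sums over AKR1C1 and AKR1C2 do not depend on the division between those 2. Such sums are given, without a test, with the comparisons of doses, of formulas and with vehicle. The span of AKR1C2 also overlaps that of AL391427.1 on the other strand, and whether counting used the strand is not given in the sources used here.

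The 3 AKR1B genes lie together on chromosome 7. AKR1B1 (ENSG00000085662, chr7:134442350-134459284, minus strand) is aldose reductase, AKR1B10 (ENSG00000198074, chr7:134527592-134541408, plus strand) reduces retinal and lipid aldehydes, and AKR1B15 (ENSG00000227471, chr7:134549136-134579875, plus strand) is its closest relative, with 92.8% identity over 948 aligned coding bases. AKR1B1 and AKR1B10 are only 75.9% identical. The last 120 coding bases, also from GENCODE 29, show this order of likeness, with capitals where a gene differs from AKR1B10, at 38 positions in AKR1B1 and 11 in AKR1B15.
AKR1B1: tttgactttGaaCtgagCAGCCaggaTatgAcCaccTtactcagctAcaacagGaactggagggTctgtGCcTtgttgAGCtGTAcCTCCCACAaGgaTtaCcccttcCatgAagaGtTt
AKR1B10: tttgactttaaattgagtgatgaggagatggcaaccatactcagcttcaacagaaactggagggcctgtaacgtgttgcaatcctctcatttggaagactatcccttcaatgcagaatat
AKR1B15: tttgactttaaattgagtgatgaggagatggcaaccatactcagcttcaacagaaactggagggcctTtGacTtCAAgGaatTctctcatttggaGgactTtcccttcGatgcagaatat
In AKR1B10 2.01% of the 100-base windows occur in another gene, AKR1B15 or the pseudogene AKR1B10P1, and in AKR1B15 1.117%. Counts of both genes were not whole in 30 of 30 libraries. AKR1B15 received 0.161% to 0.2995% of their summed counts, so a small shift in the division could move AKR1B15 while leaving AKR1B10 almost as it was. The other 2 members, AKR1A1 (ENSG00000117448, chr1:45550543-45570049, plus strand) and AKR7A2 (ENSG00000053371, chr1:19303965-19312146, minus strand), lie far apart on chromosome 1 and had whole counts in every library. No window of AKR1A1 or AKR1B1 occurs in another gene, and 0.396% of those of AKR7A2 do.

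**Figure D1:**
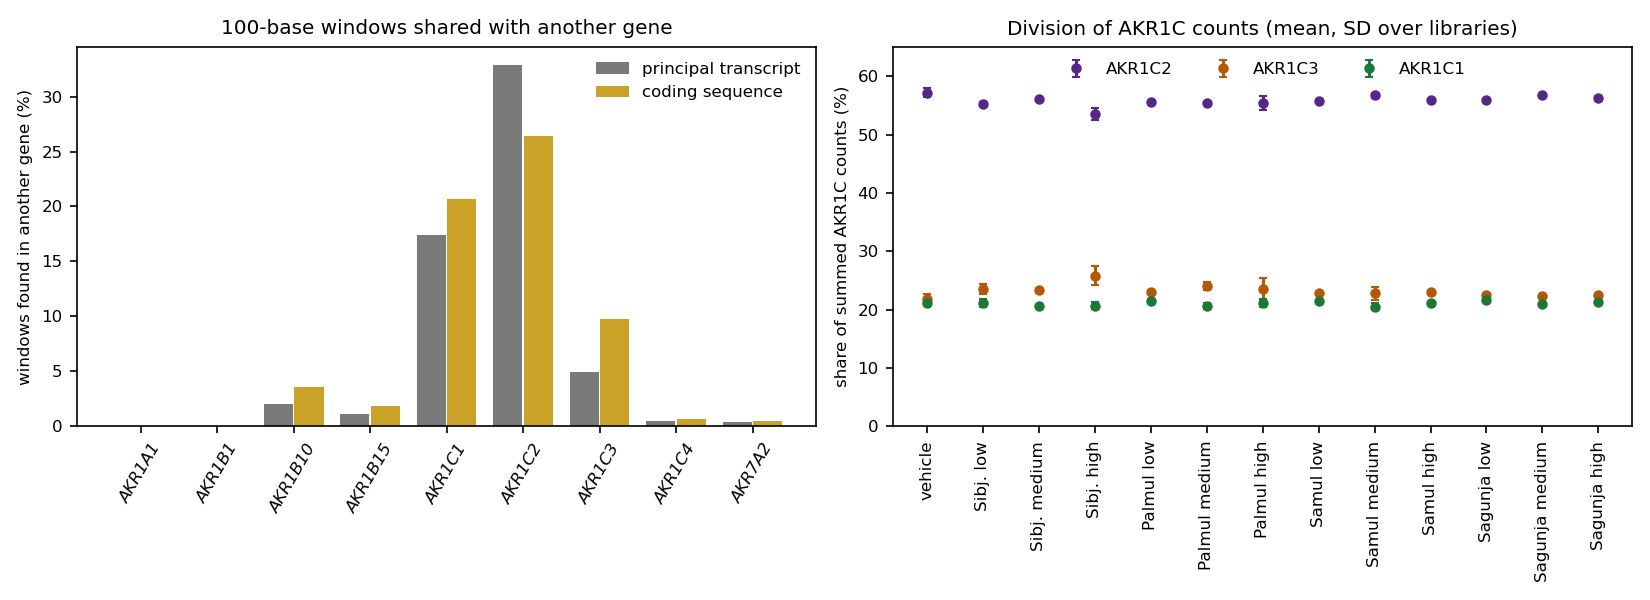
Left, the percentage of 100-base windows of each member's principal transcript (grey) and coding sequence (yellow) that also occur in another gene, highest in AKR1C2 (32.9% and 26.4%) and AKR1C1 (17.4% and 20.7%). Right, the percentage of the summed AKR1C counts given to AKR1C2, AKR1C3 and AKR1C1 in each of the 13 groups (points, mean; bars, SD over libraries, none for the single Sagunja-tang libraries), with AKR1C3 at 21.8% in vehicle and 25.8% at the high dose of Sibjeondaebo-tang.

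Promoter entries from RefSeq (GRCh38.p14) were matched for 7 of the 9 members. AKR1B10 and AKR1B15 had no entry, so their promoters were not searched. The 250 bases before the start of AKR1C1 and of AKR1C2, members whose group means had the closest likeness within the family (Pearson r = 0.91 over 13 groups, which share these reads and the libraries), differed at 1 of 246 aligned bases. Both are printed with capitals on their single match to the CCAAT box, which lies on the other strand. They cover chr10:4963165-4963414 (plus strand) and chr10:5003858-5004107 (minus strand).
AKR1C1: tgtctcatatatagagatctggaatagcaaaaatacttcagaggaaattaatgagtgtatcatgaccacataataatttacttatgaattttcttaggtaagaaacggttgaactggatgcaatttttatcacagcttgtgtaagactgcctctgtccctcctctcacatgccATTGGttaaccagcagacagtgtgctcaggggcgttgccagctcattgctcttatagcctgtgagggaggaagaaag
AKR1C2: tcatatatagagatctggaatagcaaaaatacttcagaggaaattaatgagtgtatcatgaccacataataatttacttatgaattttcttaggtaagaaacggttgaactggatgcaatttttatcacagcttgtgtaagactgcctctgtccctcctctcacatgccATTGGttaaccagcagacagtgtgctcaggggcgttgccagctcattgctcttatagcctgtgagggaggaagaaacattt
The antioxidant response element core TGACNNNGC, the letters through which NRF2 binds, was searched on both strands of the same windows. Among the 7 members it was found only in AKR7A2, with 3 matches that start 167, 156 and 95 bases before the start in the entry printed, chr1:19312147-19312396 (minus strand), and are set in capitals. Of all 35116 RefSeq promoter windows of this length 10.9% hold it.
AKR7A2: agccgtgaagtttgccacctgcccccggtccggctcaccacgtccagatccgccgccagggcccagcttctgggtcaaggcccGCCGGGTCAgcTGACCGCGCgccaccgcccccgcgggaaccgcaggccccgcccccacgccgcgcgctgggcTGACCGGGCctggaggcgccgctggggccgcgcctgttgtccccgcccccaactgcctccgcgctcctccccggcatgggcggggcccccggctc
A match describes letters only, and the windows hold no more distant sites. The dioxin response core GCGTG was found once each in AKR1B1 and AKR7A2 and in 32.2% of all windows, and CCAAT in AKR1B1, AKR1C1, AKR1C2 and AKR1C3 and in 32.0% of all windows.

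In vehicle cells the family was led by AKR1B10. Per kilobase of its principal transcript AKR1B10 stood at 2352 ± 120.4 CPM (SD, n = 3), rank 23 of 17581 genes with a length. On the same scale AKR1C2 followed with 539 ± 10.2, AKR1C3 with 426 ± 30.02, AKR1B1 with 352 ± 21.9 and AKR1C1 with 111 ± 1.73. These levels rest on annotated transcripts of 1362 to 6705 bases, the longest of which is that of AKR1C1, so the place of AKR1C1 depends on that annotation. AKR7A2 (28.1 ± 0.944), AKR1A1 (20.2 ± 0.632) and AKR1B15 (5.79 ± 0.809) were far lower, and AKR1C4, the liver form that acts in bile acid synthesis, was barely detected at 0.326 ± 0.176, with 5 to 36 counts per library. The 9 members together took 7858 ± 315.5 CPM in vehicle cells (SD, n = 3), the lowest of the 13 groups. The highest were the high doses of Sibjeondaebo-tang (9482 ± 216, n = 3), Sagunja-tang (9443, 1 library) and Palmul-tang (9036 ± 486, n = 3).

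Across the 13 groups each abundant member moved within a narrow range. AKR1B10 was lowest in vehicle, at 3740 ± 192 CPM (SD, n = 3), and the order above it ran over groups with small gaps: 3899 in the single low-dose Sagunja-tang library, 3928 and 3930 at the low doses of Samul-tang and Palmul-tang, 3987 at medium Samul-tang, 3999 at low Sibjeondaebo-tang, 4063 at high Samul-tang, 4084 at medium Sibjeondaebo-tang, 4095 in the medium Sagunja-tang library and 4197 at medium Palmul-tang. Neighbours in this order differed by more than the larger SD of the pair only between low Sagunja-tang and low Samul-tang, whose 2 libraries lay close together, and by 225 CPM below the 3 highest groups. Those were the high doses of Palmul-tang (4422 ± 204), Sibjeondaebo-tang (4539 ± 103) and Sagunja-tang (4566, 1 library). The highest group exceeded the lowest 1.22-fold.
Vehicle was also the lowest of the 13 groups for AKR1A1, AKR1C1, AKR1C2 and AKR1C3. It was the highest for AKR1B15 and second only to high Sibjeondaebo-tang for AKR7A2. The ratio of the highest to the lowest group mean was 1.42 for AKR1C3, 1.39 for AKR1B1, 1.298 for AKR1B15, 1.26 for AKR7A2, 1.22 for AKR1C1, 1.18 for AKR1C2 and 1.14 for AKR1A1. For AKR1C4 it was 2.65, between 2 single libraries.

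**Figure D2:**
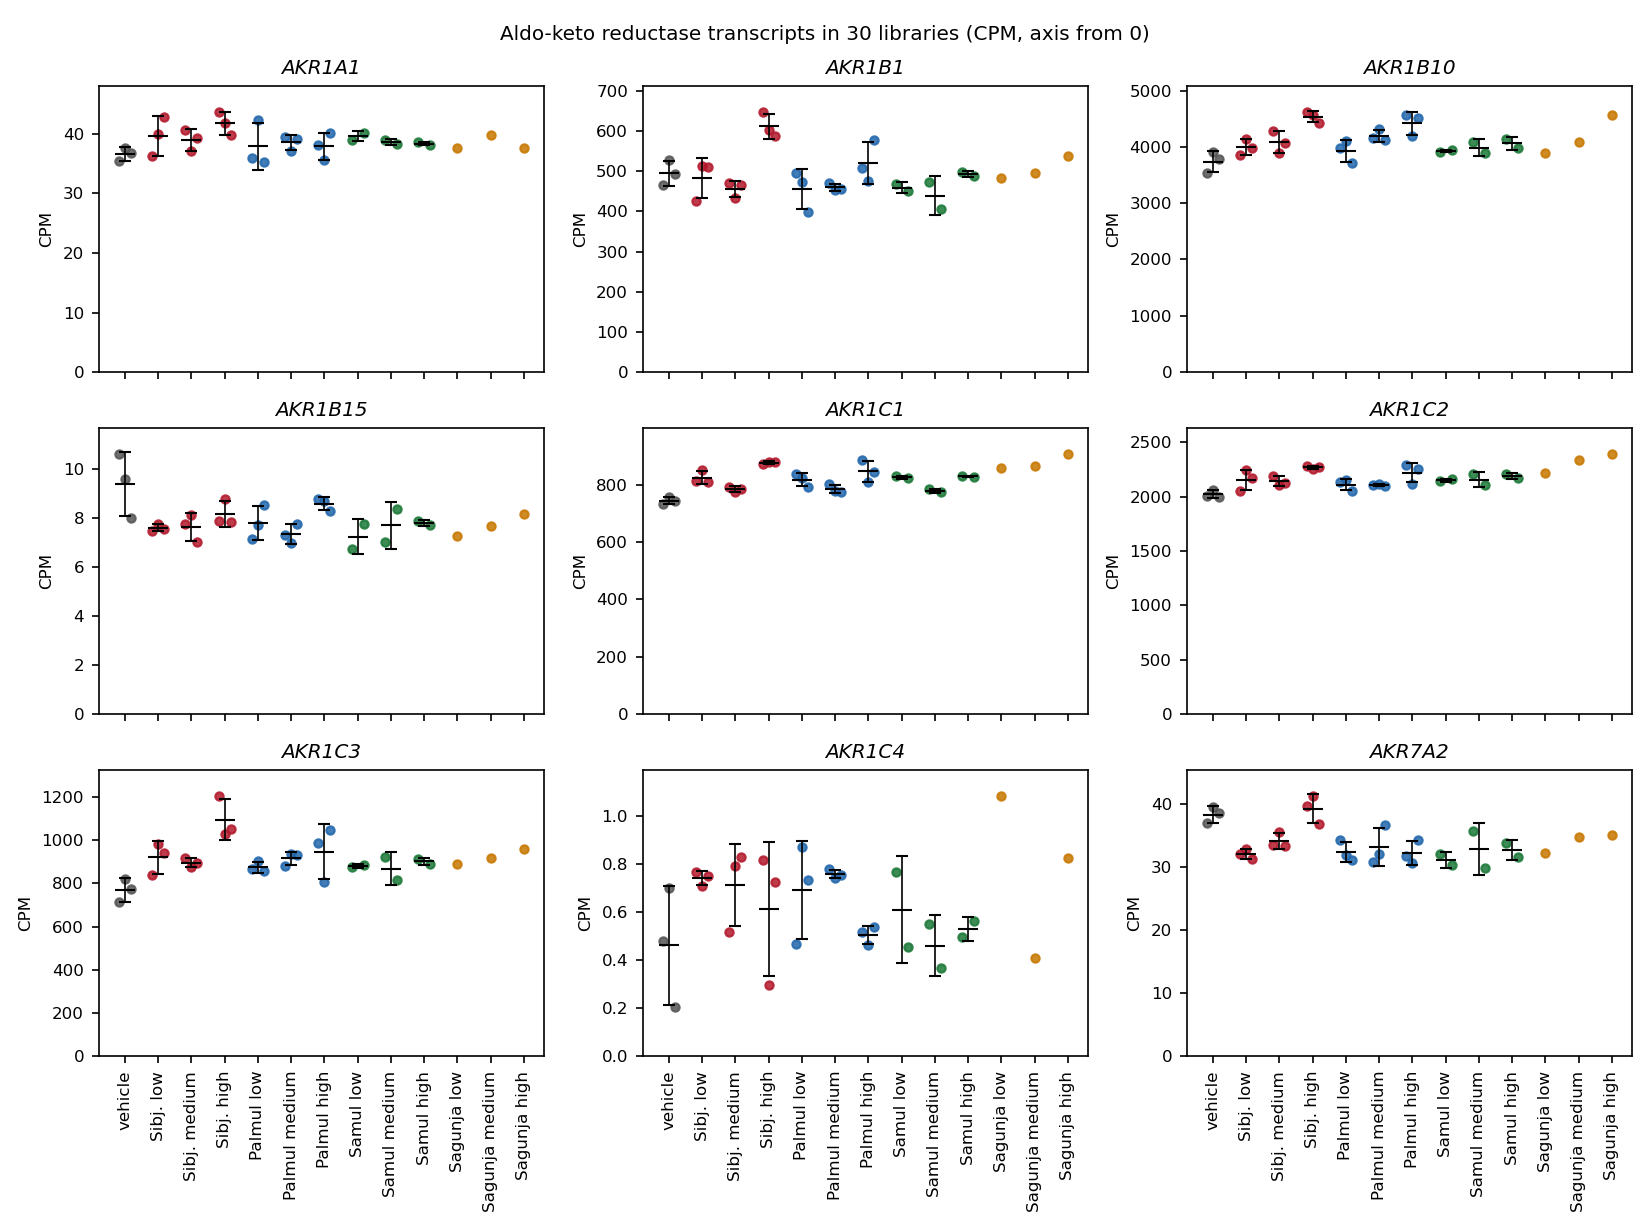
CPM of each member (vertical axis, from 0) in the 30 libraries, grouped by formula and dose (horizontal axis; grey vehicle, red Sibjeondaebo-tang, blue Palmul-tang, green Samul-tang, orange Sagunja-tang; black, mean and SD). AKR1B1 in the 3 high-dose Sibjeondaebo-tang libraries, at 587 to 648 CPM, lies above all 27 other libraries.

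With Sibjeondaebo-tang 4 of the 9 members rose between the low and high dose and none fell: AKR1B1, AKR1B10, AKR1C3 and AKR7A2. At the same threshold, an adjusted p under 0.05, 18.5% of all tested genes rose and 19.9% fell. The share of members that rose was above that of all genes, a difference that was not tested. The median log2 change of the 9 members was 0.10, against -0.01 for all genes.
AKR1B1, which turns glucose into sorbitol, had 648, 602 and 587 CPM in the high-dose libraries and 427, 513 and 511 CPM in the low-dose ones. Every high-dose library lay above every low-dose library. The log2 change was 0.34 ± 0.084 (SE), or 1.27-fold, with an adjusted p of 0.00296 by edgeR's quasi-likelihood test with Benjamini-Hochberg adjustment, which stands behind all adjusted p-values here unless another tool is named.
AKR1B10 rose from 3858, 4149 and 3989 CPM to 4620, 4574 and 4423 CPM, again with no overlap. Its log2 change of 0.18 ± 0.048 was smaller than that of AKR1B1 and about as well supported (adjusted p = 0.00258). The summed counts of AKR1B10 and AKR1B15 gave the same log2 ratio, 0.18. AKR1B15 itself did not pass (log2 change 0.10 ± 0.094).
AKR1C3 reduces androstenedione to testosterone and takes part in prostaglandin F synthesis. It had 837, 983 and 942 CPM at the low dose and 1204, 1030 and 1051 CPM at the high dose, a log2 change of 0.25 ± 0.079 (adjusted p = 0.0152). The groups did not overlap, but the call rested on single libraries: the adjusted p was 0.102 without high-dose replicate 1 and 0.0907 without low-dose replicate 1.
AKR1C1, which inactivates progesterone, had 872, 880 and 879 CPM against 812, 849.8 and 810.3 CPM at the low dose. The high-dose libraries were all higher, by a log2 change of 0.09 ± 0.038 that did not pass (adjusted p = 0.0586). It passed with DESeq2 (0.00835), with RLE size factors (0.0474) and without low-dose replicate 2 (0.0406). AKR1C2, which inactivates dihydrotestosterone, changed by 0.07 ± 0.040 (adjusted p = 0.145, and 0.0459 with DESeq2).
The summed counts of the AKR1C genes were 4242 ± 104 CPM at the high and 3901 ± 187 CPM at the low dose (SD, n = 3 each), a log2 ratio of 0.12 that is larger than the spread between libraries, 0.07. Within that sum the share given to AKR1C3 was 25.8% ± 1.59 at the high and 23.6% ± 0.851 at the low dose. The summed counts of AKR1C1 and AKR1C2 alone gave a smaller log2 ratio, 0.078, with a larger SD of both groups of 0.055. Their high-dose libraries all lay above the low-dose ones.
AKR7A2, which reduces the dialdehyde of aflatoxin and succinic semialdehyde, had 39.7, 41.3 and 36.8 CPM at the high dose against 32.0, 32.9 and 31.3 CPM at the low dose. The libraries did not overlap, and the log2 change was 0.29 ± 0.064 (adjusted p = 0.000507). AKR1A1, which reduces glucuronate among other aldehydes, did not pass at 0.08 ± 0.062, and neither did AKR1C4 at -0.26 ± 0.31.

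In Palmul-tang 1 member, AKR1B10, passed between the high and the low dose, where 1.46% of all genes rose and 2.02% fell. Its libraries had 4565, 4189 and 4511 CPM at the high dose and 3973, 4104 and 3713 CPM at the low dose, without overlap. The log2 change was 0.17 ± 0.048, 1.13-fold (adjusted p = 0.0364). The call was lost under 6 alternatives and held under the others: the adjusted p was 0.204 and 0.124 without high-dose replicates 1 and 3, 0.0641 and 0.264 without low-dose replicates 1 and 3, 0.197 with only the groups compared and 0.0523 without the high dose of Sibjeondaebo-tang.
AKR1B1 had 508, 476 and 578 CPM against 497, 472 and 399 CPM at the low dose. The groups overlapped, and the log2 change of 0.19 ± 0.084 did not pass (adjusted p = 0.293). AKR1C3 changed by 0.11 ± 0.079, AKR1C1 by 0.05 ± 0.038, AKR1C2 by 0.07 ± 0.040 and AKR7A2 by -0.01 ± 0.064, all short of the threshold. The summed AKR1C counts gave a log2 ratio of 0.077 (larger SD of both groups 0.089). Those of AKR1C1 and AKR1C2 gave 0.066 (0.059), and libraries overlapped in both sums. The median over the 9 members was 0.07, against 0.00 for all genes.

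In Samul-tang, with 2 libraries per dose, edgeR called 0 of the 9 members between the high and the low dose, where 1.34% of all genes passed, 0.604% rising and 0.74% falling. None had an unadjusted p under 0.05, and DESeq2 called 0 as well. AKR1B10 had 4148 and 3979 CPM against 3918 and 3939 CPM, a log2 change of 0.05 with a 95% interval from -0.07 to 0.17. The interval of AKR1C3 ran from -0.17 to 0.23, that of AKR1B1 from -0.11 to 0.32 and that of AKR7A2 from -0.09 to 0.23. The summed AKR1C counts gave a log2 ratio of 0.023 (larger SD of both groups 0.016), and those of AKR1C1 and AKR1C2 0.021 (0.014). Whether these steps differ from those in Sibjeondaebo-tang was not tested.
Sagunja-tang had 1 library per dose and no test. From low to medium to high dose AKR1B10 read 3899, 4095 and 4566 CPM, AKR1C1 857, 864 and 907 CPM, AKR1C2 2223, 2339 and 2393 CPM, AKR1C3 889.9, 917 and 958 CPM and AKR1B1 482, 495 and 538 CPM. AKR7A2 read 32.3, 34.8 and 35.1 CPM and AKR1B15 7.28, 7.65 and 8.15 CPM. These members read lowest at the low and highest at the high dose, all in the same single libraries. The share of all genes in that order was not counted, so the order is no result about the family. AKR1A1, at 37.59, 39.75 and 37.57 CPM, and AKR1C4, at 1.083, 0.4095 and 0.826 CPM, were in another order. The summed AKR1C counts read 3971, 4121 and 4259 CPM, and those of AKR1C1 and AKR1C2 3080, 3203 and 3299 CPM.

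Between the medium and the low dose edgeR called none of the members in any of the 3 replicated formulas, and none had an unadjusted p under 0.05. DESeq2 called 0 members as well. Of all genes 0.0113% passed with Sibjeondaebo-tang, 0.00565% with Palmul-tang and 0% with Samul-tang, while 1108, 741 and 988 had an unadjusted p under 0.05. AKR1C1 read lower at the medium than at the low dose in all 3, with means of 785 against 824 CPM in Sibjeondaebo-tang, 785 against 817 in Palmul-tang and 779 against 826 in Samul-tang. The libraries did not overlap in Sibjeondaebo-tang and Samul-tang, and the adjusted p-values were 0.815, 0.998 and 0.904. The summed AKR1C1 and AKR1C2 counts averaged 2930 ± 51.9 against 2980 ± 113 CPM in Sibjeondaebo-tang (SD). They averaged 2892 ± 17.3 against 2930 ± 76.6 CPM in Palmul-tang and 2938 ± 74.3 against 2977 ± 8.85 CPM in Samul-tang.

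**Figure D3:**
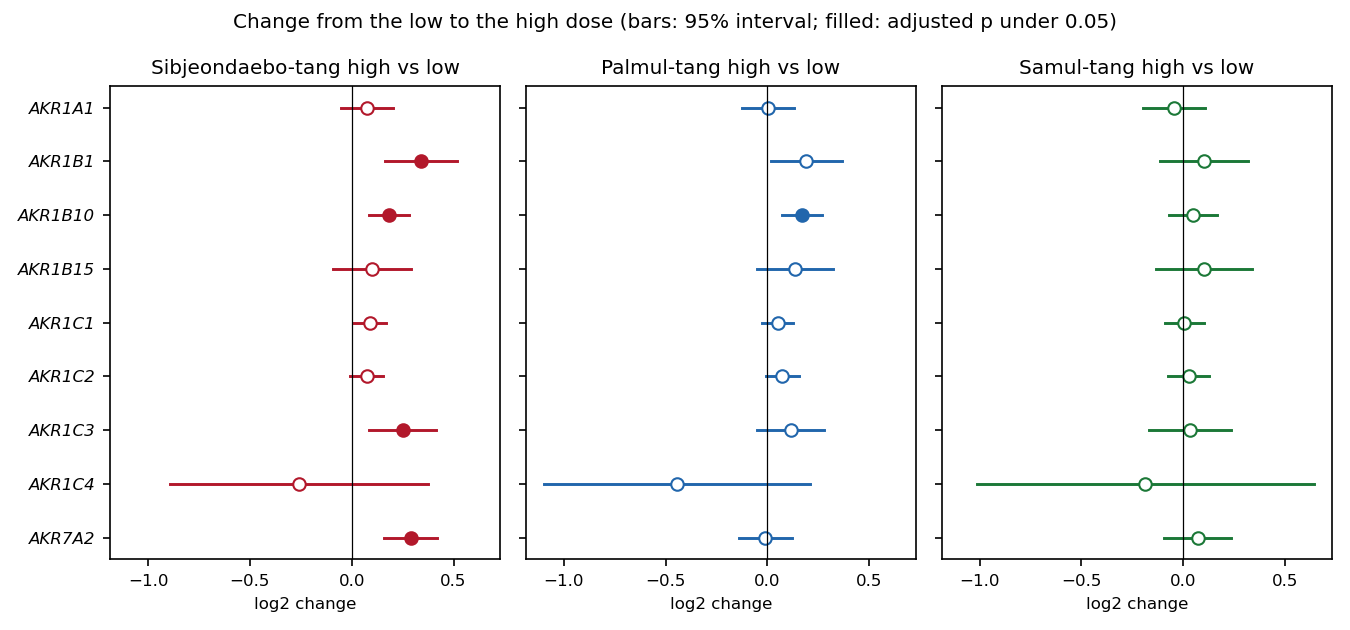
Log2 change of each member, high against low dose (horizontal axis), in Sibjeondaebo-tang, Palmul-tang and Samul-tang, with the 95% interval as a bar and filled points for an adjusted p under 0.05. In Sibjeondaebo-tang 4 members are filled, in Palmul-tang AKR1B10 alone, and in Samul-tang none.

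Against vehicle, all comparisons share the same 3 vehicle libraries, and each is given with its own values. At the high dose of Sibjeondaebo-tang 6 members were higher and none was lower, against 20% and 21.8% of all genes. AKR1C3 was highest by fold, with 1204, 1030 and 1051 CPM against 714, 822 and 776 CPM in vehicle, a log2 change of 0.51 ± 0.079, or 1.42-fold (adjusted p = 1.87e-05). No library of one group reached the other. AKR1B1 was higher by 0.31 ± 0.084 (adjusted p = 0.00586), AKR1B10 by 0.28 ± 0.048 (1.402e-05), AKR1C1 by 0.24 ± 0.038 (5.06e-06), AKR1C2 by 0.17 ± 0.040 (0.00101) and AKR1A1 by 0.19 ± 0.063 (0.0153). The call of AKR1A1 was lost without vehicle replicate 1 (0.0708) or without high-dose replicate 1 (0.0827). The summed AKR1C counts were 1.20-fold higher, 4242 ± 104 against 3538 ± 97.9 CPM (SD, n = 3 each). Those of AKR1C1 and AKR1C2 alone were 1.14-fold higher.
At the high dose of Palmul-tang 4 members were higher and 1 lower, against 19% and 18.1% of all genes. AKR1C3 was higher by 0.30 ± 0.079 (adjusted p = 0.00478), AKR1B10 by 0.24 ± 0.048 (0.000151), AKR1C1 by 0.19 ± 0.038 (0.000208) and AKR1C2 by 0.13 ± 0.040 (0.00749). AKR1C2 was no longer called without high-dose replicate 1 (0.0518) or with only the groups compared (0.103). The summed AKR1C counts were 1.135-fold higher than vehicle, and those of AKR1C1 and AKR1C2 1.109-fold. AKR7A2 was lower by 0.25 on the log2 scale (SE 0.065, adjusted p = 0.00251), with 31.7, 30.6 and 34.3 CPM against 37.0, 39.5 and 38.5 CPM.
At the high dose of Samul-tang 1 member was higher and 2 were lower, against 15.3% and 13.9% of all genes. AKR1C1 was higher by 0.16 ± 0.042 (adjusted p = 0.005035, and 0.05197 with only the groups compared). The summed AKR1C counts were 1.108-fold higher than vehicle, and those of AKR1C1 and AKR1C2 1.091-fold. AKR7A2 fell by 0.23 on the log2 scale (adjusted p = 0.0168), a call lost without vehicle replicate 2 (0.0569) or high-dose replicate 3 (0.192). AKR1B15 fell by 0.28 (adjusted p = 0.0437), and this call was lost under 8 alternatives, with adjusted p-values up to 0.254 and a log2 change of -0.18 without vehicle replicate 1. AKR1C2 (0.05025) and AKR1C3 (0.05604) missed the threshold and passed with DESeq2 (0.00707 and 0.0444).

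At the low doses members differed from vehicle as well. In Sibjeondaebo-tang 2 were higher and 2 lower, against 18.6% and 18.2% of all genes. In Palmul-tang 1 was higher and 2 were lower (18.2% and 17.8% of all genes), and in Samul-tang likewise 1 and 2 (15.6% and 15.1%). The counts of members are near these shares of all genes.
AKR1C1 was higher than vehicle at the low dose of all 3 formulas, by 0.15 ± 0.038, 0.14 ± 0.038 and 0.15 ± 0.042 in Sibjeondaebo-tang, Palmul-tang and Samul-tang (adjusted p = 0.00225, 0.00489 and 0.00611). Vehicle libraries read 733, 756 and 743 CPM, and the 8 low-dose libraries lay between 792 and 849.8 CPM. With only the groups compared the call in Samul-tang was lost (0.0866). In the same order of formulas the summed AKR1C counts gave log2 ratios to vehicle of 0.14, 0.11 and 0.13. Those of AKR1C1 and AKR1C2 gave 0.107, 0.083 and 0.105. For both sums every low-dose library lay above every vehicle library.
AKR7A2 was lower at the low dose of all 3, by 0.26, 0.24 and 0.30 on the log2 scale (SE 0.064, 0.064 and 0.073, adjusted p = 0.00182, 0.00352 and 0.00202). Every low-dose library, at 30.3 to 34.2 CPM, lay below every vehicle library. The CD68-led leukocyte sum and the epithelial sum were likewise lower at the low doses than in vehicle. Their part in the differences of AKR7A2 and AKR1B15 was not tested, and the other 4 leukocyte markers were near 0. Without low-dose replicate 3 the call in Samul-tang was lost (0.0665).
AKR1B15 fell by 0.31, 0.27 and 0.38 (adjusted p = 0.00715, 0.0196 and 0.00593), from 10.6, 9.58 and 7.99 CPM in vehicle to 6.74 to 8.52 CPM. All 3 calls were lost without vehicle replicate 1 (adjusted p = 0.101, 0.195 and 0.0605), and the change in Palmul-tang was then -0.18. In Palmul-tang the call was also lost without vehicle replicate 2 (0.0575), low-dose replicate 1 (0.103) or low-dose replicate 2 (0.0546) and with only the groups compared (0.0561), and in Samul-tang without low-dose replicate 2 (0.102). AKR1B15 held 0.252% ± 0.0449 (SD, n = 3) of the summed AKR1B10 and AKR1B15 counts in vehicle and 0.190% ± 0.00361 at low Sibjeondaebo-tang, and the part of the read division in this was not tested. AKR1C3 was higher at low Sibjeondaebo-tang by 0.26 ± 0.079 (adjusted p = 0.0131), a call lost without vehicle replicate 1 (0.0818) or low-dose replicate 2 (0.0715).
In total RNA of a culture, a lower level per cell and a smaller number of cells with the transcript cannot be told apart.

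**Figure D4:**
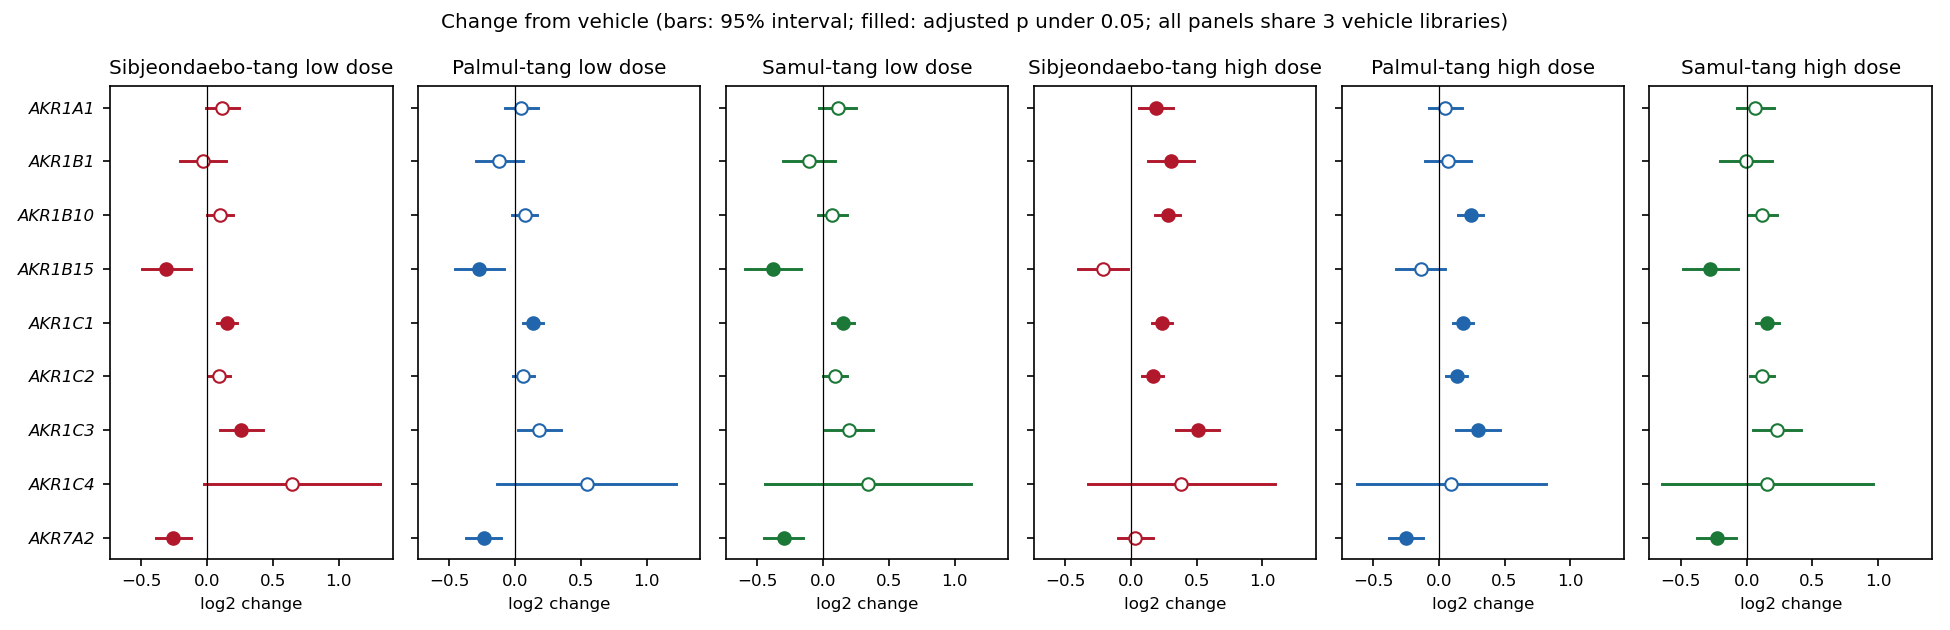
Log2 change of each member from vehicle (horizontal axis, 95% interval as bars, filled for an adjusted p under 0.05) at the low dose (left 3 panels) and the high dose (right 3 panels) of Sibjeondaebo-tang, Palmul-tang and Samul-tang, all against the same 3 vehicle libraries. AKR7A2 lies between -0.30 and -0.23 in 5 panels and at 0.03 at the high dose of Sibjeondaebo-tang.

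The high doses of Sibjeondaebo-tang and Palmul-tang were also compared directly, without vehicle. Sibjeondaebo-tang had 3 members higher and none lower, where 14.3% of all genes were higher and 16% lower. AKR7A2 read 39.7, 41.3 and 36.8 CPM against 31.7, 30.6 and 34.3 CPM, without overlap, a log2 difference of 0.28 ± 0.064 (adjusted p = 0.000989). The summed epithelial markers were likewise higher in Sibjeondaebo-tang, at 7258 to 7539 against 6067 to 6204 CPM. Their part in the AKR7A2 difference was not tested. AKR1B1 read 648, 602 and 587 CPM against 508, 476 and 578 CPM, also without overlap, with a log2 difference of 0.23 ± 0.084 (adjusted p = 0.0406). AKR1C3 differed by 0.21 ± 0.079 (adjusted p = 0.0483), and its libraries overlapped, since Palmul-tang read 988, 805 and 1048 CPM.
The call of AKR1B1 was lost without replicate 1 or 2 of either group (adjusted p = 0.0676 to 0.184), and that of AKR1C3 without Palmul-tang replicate 1 or 2 or Sibjeondaebo-tang replicate 1 or 3 (0.0512 to 0.274) and with only the groups compared (0.218). The log2 difference of AKR1C3 was 0.11 without Palmul-tang replicate 2 and 0.14 without Sibjeondaebo-tang replicate 1. AKR1B10 differed by 0.04, with a 95% interval from -0.06 to 0.13, and the intervals of AKR1C1 (-0.03 to 0.13) and AKR1C2 (-0.05 to 0.11) likewise spanned 0. The summed AKR1C counts had a log2 ratio of 0.079 (larger SD of both groups 0.089), and those of AKR1C1 and AKR1C2 0.037 (0.059).
The difference between the 2 formulas in the step from low to high dose passed for 1 member, AKR7A2, where 5.59% of all genes passed in that direction and 9.29% in the other. The count of members is near these shares of all genes. AKR7A2 rose by 0.29 in Sibjeondaebo-tang and changed by -0.01 in Palmul-tang, a difference of 0.30 ± 0.091 (adjusted p = 0.0223). The call was lost without any 1 of 4 libraries: Palmul-tang low-dose replicate 1 (0.0799), Palmul-tang high-dose replicate 2 (0.0638), Sibjeondaebo-tang high-dose replicate 2 (0.0714) and Sibjeondaebo-tang low-dose replicate 3 (0.0514). For AKR1B1 the difference of the steps was 0.15 ± 0.12, and for AKR1C3 0.14 ± 0.11, neither past the threshold.

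Genes around the family were followed in the same step from low to high dose, in 8 lists, to be read against the shares of all genes given for that step. Of 9 genes listed around the supply of NADPH, the cofactor of the reductases, 8 rose in Sibjeondaebo-tang, with a median log2 change of 0.28. H6PD, an enzyme of the endoplasmic reticulum, fell by 0.31. The list also holds genes of the pentose phosphate pathway whose enzymes do not form NADPH themselves, among them TKT and TALDO1. The transketolase gene TKT read 2062 ± 52.9 against 1585 ± 44.1 CPM (SD, n = 3 each), a log2 change of 0.38 (adjusted p = 1.785e-08). PGD, which encodes a dehydrogenase of the pentose phosphate pathway, rose by 0.31 and TALDO1, the transaldolase gene, by 0.32. In Palmul-tang 1 of the 9 rose, PGD by 0.13, and H6PD fell by 0.25, and in Samul-tang 3 rose, among them TKT by 0.20 and PGD by 0.19.
Of 24 NRF2 targets outside the family 17 rose and 3 fell in Sibjeondaebo-tang (median 0.24), 9 rose in Palmul-tang (0.12) and 7 in Samul-tang (0.11). None of them fell in Palmul-tang or Samul-tang. HMOX1, heme oxygenase, rose in all 3, by 0.90, 0.58 and 0.84 (adjusted p = 1.49e-14, 4.34e-09 and 5.06e-10). GCLM, a subunit of the enzyme that begins glutathione synthesis, rose by 0.44, 0.38 and 0.35, and FTH1, the ferritin heavy chain, by 0.54, 0.26 and 0.35. The 3 that fell in Sibjeondaebo-tang were ABCC2 and ABCC3, exporters of conjugates, by 0.43 and 0.45, and UGT1A6 by 0.22. ABCC2 changed by 0.06 in Palmul-tang and -0.05 in Samul-tang, neither past the threshold. The changes of HMOX1, GCLM and FTH1 in Sibjeondaebo-tang were larger than any among the 9 members, of which AKR1B1 had the largest at 0.34.
Among 8 regulators of NRF2, 4 rose and 1 fell in Sibjeondaebo-tang. SQSTM1, which draws KEAP1 into autophagy, rose by 0.52 with Sibjeondaebo-tang, by 0.30 with Palmul-tang and by 0.28 with Samul-tang. KEAP1 rose by 0.25, CUL3, which ubiquitinates NRF2 with it, by 0.13 and BACH1, a repressor of NRF2 targets, by 0.14 in Sibjeondaebo-tang, where MAFG, a partner of NRF2 on DNA, fell by 0.13. No other regulator passed in Palmul-tang, and in Samul-tang NFE2L2, which encodes NRF2, rose by 0.21.
Of 6 targets of the aryl hydrocarbon receptor 5 rose in Sibjeondaebo-tang (median 0.60), 4 in Palmul-tang (0.53) and 3 in Samul-tang (0.45). In Sibjeondaebo-tang CYP1A1 averaged 0.327 CPM at the low and 3.01 CPM at the high dose, and CYP1B1 123 and 228 CPM. ALDH3A1, an aldehyde dehydrogenase counted again among the carbonyl and aldehyde enzymes, rose by 0.83, 0.74 and 0.53, and TIPARP by 0.36 and 0.29 in Sibjeondaebo-tang and Palmul-tang. NQO1, which is also among the NRF2 targets, rose by 0.25 in Sibjeondaebo-tang.

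Other enzymes of carbonyls and aldehydes were mixed: 11 of 27 rose and 4 fell in Sibjeondaebo-tang (median 0.13), 3 rose and 2 fell in Palmul-tang (0.02), and 1, ALDH3A1, rose in Samul-tang (0.00). Beside ALDH3A1, DHRS3, a retinal reductase, rose by 0.34 in Sibjeondaebo-tang, CBR3, a carbonyl reductase, by 0.60 and ALDH1B1 by 0.21. Those that fell there were CBR4 (-0.28), PTGR2 (-0.23), ALDH1A1 (-0.18) and ALDH2 (-0.16). In Palmul-tang ALDH3A1, CBR3 (0.63) and DHRS3 (0.21) rose and ALDH1A1 (-0.17) and ALDH3B1 (-0.13) fell.
Of the 8 other genes of the aldo-keto reductase superfamily none rose and 2 fell in Sibjeondaebo-tang, with a median of -0.69, and none passed in Palmul-tang or Samul-tang. AKR1C8, a further gene of the chromosome 10 cluster, fell from 2.71 ± 0.461 to 0.705 ± 0.0700 CPM (SD, n = 3 each), a log2 change of -1.94 (adjusted p = 3.08e-09). KCNAB3, a potassium channel subunit of the superfamily, fell from 3.54 ± 0.1685 to 1.39 ± 0.190 CPM (adjusted p = 7.365e-07). AKR7A3 and AKR7L, relatives of AKR7A2, were below 0.3 CPM in the groups of this step and did not pass.
For the polyol pathway and the osmotic response, in which AKR1B1 acts, 3 of 8 genes rose and 3 fell in Sibjeondaebo-tang. SORD, which turns sorbitol into fructose, rose by 0.24 and KHK, which phosphorylates fructose, by 0.37. NFAT5, the osmotic transcription factor known to drive AKR1B1, fell from 70.5 ± 1.545 to 38.3 ± 1.23 CPM (SD, n = 3 each, log2 change -0.88, adjusted p = 1.51e-11). The transcripts of NFAT5 and AKR1B1 changed in opposite directions. NFAT5 protein was not measured, and a link between both changes was not tested. SLC38A2, an amino acid transporter, fell by 0.14, the inositol carrier SLC5A3 fell by 0.18 and the taurine carrier SLC6A6 rose by 0.14. In Palmul-tang 1 gene fell, SLC38A2, by 0.16, and in Samul-tang none passed.
Of 18 partners in steroid and prostaglandin metabolism 7 rose and none fell in Sibjeondaebo-tang, with a median of 0.13. PTGES, a prostaglandin E synthase, rose by 0.58, PTGES3 by 0.35, PTGES2 by 0.31 and HSD17B10 by 0.23. In Palmul-tang 1 rose, PTGES by 0.24, and 1 fell, PTGS2, an inducible cyclooxygenase, by 0.66, and in Samul-tang none passed.

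**Figure D5:**
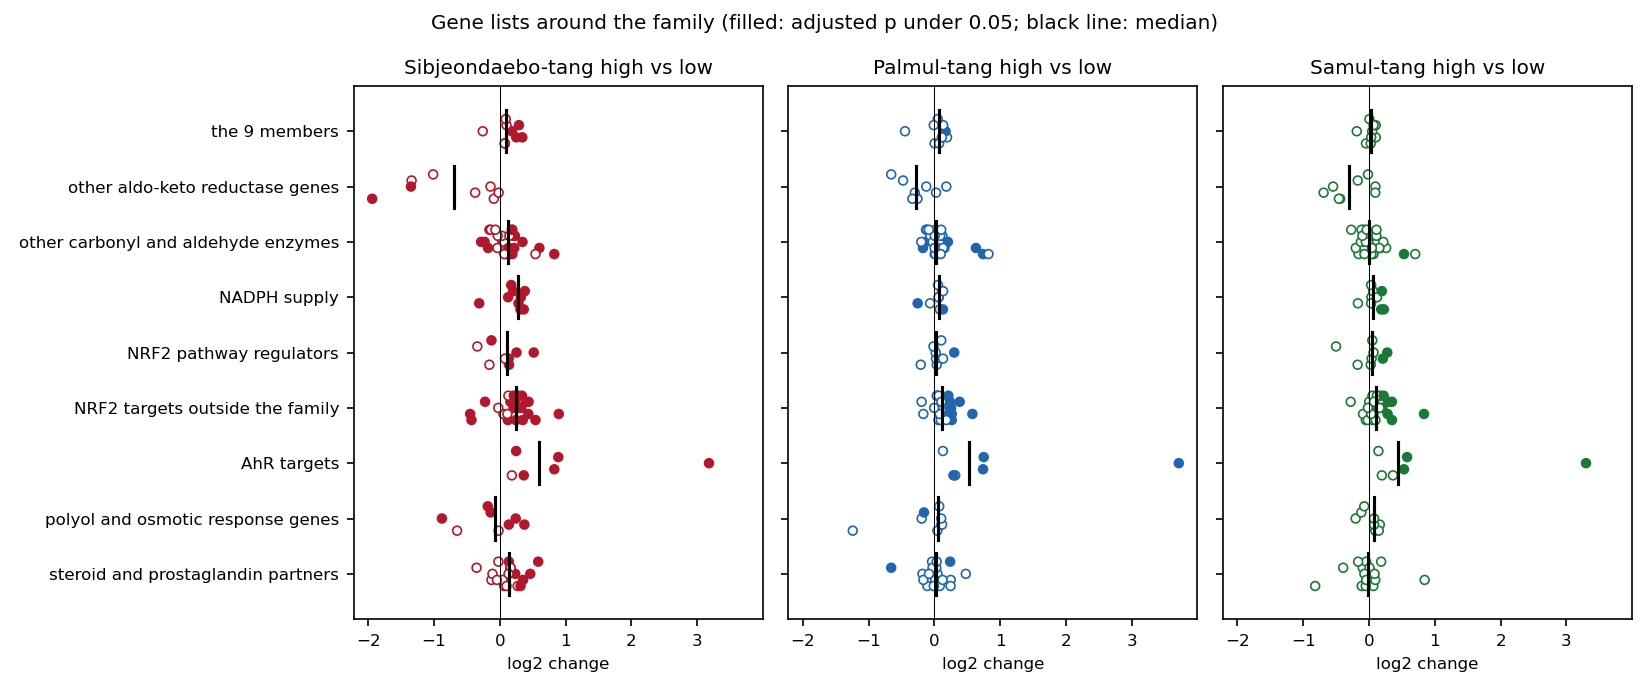
Log2 change between the high and low dose (horizontal axis) of the 9 members and of the tested genes of 8 lists (rows), 1 point per gene, filled for an adjusted p under 0.05, with the median as a black line, in Sibjeondaebo-tang, Palmul-tang and Samul-tang. The median of the NADPH supply genes is 0.28 in Sibjeondaebo-tang, and the aryl hydrocarbon receptor targets have medians of 0.45 to 0.60.

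Genes outside the family were compared with members by the Pearson correlation of mean log2 CPM over the 13 groups. The groups share the scaling of libraries and, within a formula, the extract. The search held 11362 tested genes with a symbol and a mean log2 CPM of at least 2. For AKR1B10 the most similar genes were MEAK7 (Pearson r = 0.96), MTHFD2 (0.96) and CAVIN2 (0.95). AKR1C3 was closest to ETFA (0.98), PSAT1 (0.97) and PSMA5 (0.97), AKR1B1 to VSIR (0.94), BZW2 (0.93) and PSMB3 (0.93), and AKR1C1 to FHL1 (0.91), PARG (0.87) and PRKAG2 (0.85). Within the family AKR1B10 and AKR1C3 had r = 0.85, AKR1C1 and AKR1C3 0.74, AKR1B1 and AKR1B10 0.70, and AKR7A2 was nearest to AKR1B1 at 0.67 and AKR1B15 at 0.64, against 0.02 with AKR1C1. These are descriptions over 13 points.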

How the data were processed

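RNA-seq libraries were 100 bp paired-end from a stranded MGI kit, per the labels' protocols. The submitters' processing notes name GRCh38 and the tools FastQC 0.11.9, Trim Galore 0.6.5, STAR 2.7.3a and RSEM 1.3.3. The annotation release is not given in the sources used here. The deposited values are RSEM expected counts per gene, in which the authors' quantification divides shared reads among genes, and 8.50% to 9.82% of values per library were not whole. They were rounded. The 30 columns used were matched by library codes, and 240 columns of other samples were left out.

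Genes passing filterByExpr (17701) were scaled by TMM (factors 0.923 to 1.0515) and tested in 1 model over all 30 libraries with edgeR 4.0.16 in R 4.3.3 (robust glmQLFit, glmQLFTest), with Benjamini-Hochberg adjustment over all tested genes and a threshold of 0.05. CPM use the TMM-scaled totals. SEs are the log2 change over the square root of F, and intervals are 95%. Over libraries of 23986637 to 35159898 counts, precision is given by the SD of replicates. Summed AKR1C counts and the single Sagunja-tang libraries have values and no test. On simulated data for the high against the low dose of Palmul-tang, with 17701 genes, 14% of genes changed by 0.2 (log2), 46% of those changed by 0.3, 68% by 0.5 and 74% by 1 were recovered. The 200 changed genes were drawn at random from tested genes of every level, while 615 genes passed in the real step. These rates are therefore not those of the members, several of which are abundant.

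Windows, identities and coding bases came from GENCODE 29 and promoters from RefSeq GRCh38.p14, with Biopython 1.88. Named genes were the 9 members, up to 4 genes per list with the smallest adjusted p for Sibjeondaebo-tang high against low dose, and the 3 most similar genes of 4 members. NQO1, H6PD, ABCC3, UGT1A6, BACH1, NFE2L2, CBR4, PTGR2, ALDH1A1, ALDH2, ALDH3B1, SLC5A3, SLC6A6 and PTGS2 were named after their values were seen. One gene that the rule names is not reported here. The members and lists were chosen with earlier results of these data known. Alternatives were DESeq2 1.42.0, RLE size factors, no filter, only the groups compared, a replicate block, leaving out each library, leaving out the high dose of Sibjeondaebo-tang, and unrounded counts.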

Additional observations from a re-analysis of the deposited data

Results flagged for a closer look

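AKR7A2 rose from the low to the high dose of Sibjeondaebo-tang and not, by the test, in Palmul-tang. The difference between both log2 steps was 0.3001 (SE 0.0909, adjusted p = 0.0223 by edgeR's quasi-likelihood test). Of all tested genes 5.59% passed this test in the same direction and 9.29% in the other. With 1 of 9 members past it, the count is near these shares and is no result about the family. The adjusted p was 0.0514 to 0.0799 without Palmul-tang low-dose replicate 1, Palmul-tang high-dose replicate 2, Sibjeondaebo-tang high-dose replicate 2 or Sibjeondaebo-tang low-dose replicate 3, each left out alone. All 3 high-dose Sibjeondaebo-tang libraries read above all 3 low-dose ones, while the Palmul-tang libraries overlapped. Sibjeondaebo-tang at the high dose is also the condition whose libraries stood apart on the first principal component, and the part of that in the difference was not tested.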

How the results depend on the processing

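Of 33 member calls past the threshold in the 14 comparisons, 17 held under every alternative run and 16 were lost under at least 1. Of the results that did not pass, 14 passed under at least 1 alternative. No called change reversed its direction. The calls of AKR1B1, AKR1B10 and AKR7A2 in the step from low to high dose of Sibjeondaebo-tang held throughout.

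The number of members past the threshold was 0 instead of 1 in the dose step of Palmul-tang with only the groups compared and with the high Sibjeondaebo-tang dose left out of the fit, and 5 instead of 3 for high Samul-tang against vehicle with DESeq2. Leaving out 1 library gave 0 to 1 for the dose step of Palmul-tang, 1 to 4 for high Samul-tang against vehicle, 2 to 6 for low Sibjeondaebo-tang against vehicle, 1 to 4 for Sibjeondaebo-tang against Palmul-tang at the high dose and 0 to 1 for the difference of their dose steps. Where this left 1 library of Samul-tang in a group, that library is assumed to vary like the other groups. Why these counts moved was not tested.

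Libraries of the same replicate number did not deviate together at the median (correlation 0.0061 over 111 pairs, against -0.00026 over 216 pairs of other numbers). A median over all formulas cannot show whether the numbers pair libraries inside a formula or for some genes. With a replicate block 1 member instead of 3 passed between Sibjeondaebo-tang and Palmul-tang at the high dose, since AKR1B1 (adjusted p = 0.0591) and AKR1C3 (0.0710) were lost. AKR1B15 at high Samul-tang against vehicle was lost (adjusted p = 0.0559) and AKR1C2 there passed (0.04997). The block changed no other call of a member. For the summed AKR1C and AKR1B10 with AKR1B15 counts, leaving out 1 library of so few cannot move a group mean by more than its SD. Leaving out libraries therefore could not test how firm those log2 ratios are. AKR1C4, at 5 to 36 counts per library, has intervals too wide to show changes of the size seen in other members, and DESeq2 gave it no adjusted p in several comparisons.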
